A study of Mus musculus with 4 samples.

Results

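The IGF axis genes are 9 genes of insulin-like growth factor signalling followed across the mouse thoracic aorta: the ligand gene Igf1, the receptor gene Igf1r, the adaptor gene Irs2 and 6 genes of secreted binding proteins, Igfbp2 to Igfbp7. The members were given as a list of names, and all 9 were found among the 17524 gene symbols of the count tables. Single cells were captured with 10x Genomics droplets, in which every transcript is tagged near its 3′ end with a unique molecular identifier (UMI) and counted once. There were 4 libraries, each of 1 pool of 3 mice: WT on a normal diet with saline (WT saline), WT fed a high fat diet for 5 weeks and infused with AngII for 7 days (WT AngII), Sting-KO on a normal diet with saline (KO saline), and Sting-KO with the high fat diet and AngII (KO AngII). AngII is angiotensin II, a vasoconstrictor peptide whose infusion causes hypertension. Sting-KO is a knockout of Sting in the whole body, and STING is an adaptor protein that triggers interferon production when DNA is sensed in the cytoplasm. The series asks what STING contributes in the aorta. Strain, age and sex were not stated in the labels, and the effects of infusion and diet cannot be told apart in any comparison.

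IGF-1 is a growth hormone-dependent peptide that many tissues also make locally, and it promotes growth and survival of smooth muscle cells and fibroblasts through its receptor tyrosine kinase. Most IGF-1 outside cells is held by binding proteins, which lengthen its life, block its access to the receptor or deliver it at the cell surface, and proteases that cut the binding proteins release the ligand. Inside the cell the receptor signals through IRS adaptors, PI3 kinase and AKT, and AKT keeps the FOXO transcription factors out of the nucleus.

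UMIs were summed over cells that passed 3 gates. The smooth muscle gate held cells with at least 3 UMIs of Myh11 (smooth muscle myosin). The fibroblast gate held cells with at least 10 UMIs of Dcn and Lum (matrix proteoglycans) and at most 1 of Myh11. The phagocyte gate held cells with at least 10 UMIs of Lyz2, C1qa and C1qb and under 10 of Dcn and Lum. Series of 4 values below keep one order, with both WT libraries before both KO libraries and saline before AngII within each genotype. In that order the smooth muscle gate held 7546, 5889, 10350 and 5660 cells, the fibroblast gate 1021, 1696, 506 and 1879, and the phagocyte gate 285, 705, 83 and 559. A level is given as CPM, the UMIs of a gene per 1000000 UMIs of the gate. Levels were summed over fixed lists of 8 markers per gate, which include the gating genes. The smooth muscle sum was at least 31634 CPM in its own gate and at most 6823 in the other 2 gates. In the same way the fibroblast sum was at least 24855 and at most 6618 CPM, and the phagocyte sum at least 24769 and at most 343. Part of each gap was set by the gating genes. Gating genes also differed between the libraries. Myh11 stood at 2069, 1236, 1936 and 1077 CPM in the smooth muscle gate. In the fibroblast gate Dcn stood at 11323, 7074, 11071 and 3301 CPM and Lum at 1236, 1965, 1269 and 1151. Fixed UMI minimums thus need not cut the same range of cells in each library. All 8 smooth muscle markers also had UMIs in the other 2 gates in all 4 libraries. Ratios between 2 libraries are on the log2 scale with a 95% exact conditional interval, and both that interval and the Poisson intervals of levels cover counting error only. With 1 library per group there are no replicates, no difference has been tested between mice, and no p-value is given. A gene was compared with a mean of at least 10 CPM and at least 50 UMIs over both libraries, and a difference of at least 2-fold was counted.

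The deposited libraries held between 8495 and 12053 barcodes and between 60064038 and 94698727 UMIs. Median UMIs per kept cell were 5894.5, 9954, 6081 and 9300.5, so cells of the AngII libraries were deeper. Tmem173, which encodes STING, had 105, 637, 102 and 578 UMIs over all kept cells, so its 3′ counts did not separate the libraries labelled WT from those labelled Sting-KO, and a 3′ tag outside the altered part of the gene would check nothing. WT and KO below therefore name libraries by their labels. No doublet caller was run, and between 18 and 85 cells per library lay in both the smooth muscle and the phagocyte gates. Acta2, a smooth muscle actin gene, reached between 15.6% and 17.4% of its smooth muscle level in the phagocyte gate and between 3.49% and 12.02% in the fibroblast gate. Dcn and Lum reached between 1.22% and 4.93% of their fibroblast levels in the smooth muscle gate. Pairs of libraries shared between 92 and 148 barcodes.

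Promoters are shown for 4 members. Igfbp2 had the largest difference with AngII in WT smooth muscle among the binding protein genes. Irs2 had a larger difference there than the receptor gene Igf1r. The ligand gene Igf1, with a larger difference there than Irs2, is not shown. Igfbp5 and Igfbp6 had the highest Pearson r of any 2 members (0.97) over all gates and libraries, dominated by differences between gates. Within smooth muscle of the WT libraries they parted, with log2 ratios of 0.04 and 1.24 for AngII over saline. The Igfbp6 value was 0.26 without cells rich in fibroblast or phagocyte genes. In the KO libraries both were lower with AngII, at -0.36 and -0.61. Each sequence is the 250 bases before a RefSeq transcript start (GRCm38.p6), 5′ to 3′ on the strand of the gene, and capitals mark CACGTG (an E-box), TTGTTT (the core bound by FOXO factors) and GGGCGG (a GC box). The search covered both strands, and TGANTCA (an AP-1 site) and the CArG box of serum response factor were also searched. In Irs2 the CACGTG and the TTGTTT stand next to each other.
Igfbp2, chr1:72824230-72824479, plus strand: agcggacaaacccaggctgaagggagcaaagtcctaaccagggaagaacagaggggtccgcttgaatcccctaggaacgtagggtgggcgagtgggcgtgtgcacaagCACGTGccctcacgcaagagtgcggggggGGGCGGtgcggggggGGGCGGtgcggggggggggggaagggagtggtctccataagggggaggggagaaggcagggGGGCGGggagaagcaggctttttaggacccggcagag
Irs2, chr8:11008930-11009179, minus strand: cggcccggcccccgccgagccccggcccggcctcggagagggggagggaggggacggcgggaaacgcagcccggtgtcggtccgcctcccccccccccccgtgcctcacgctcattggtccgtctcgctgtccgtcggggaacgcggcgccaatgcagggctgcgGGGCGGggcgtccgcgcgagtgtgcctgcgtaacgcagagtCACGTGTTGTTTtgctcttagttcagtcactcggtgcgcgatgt
Igfbp5, chr1:72874866-72875115, minus strand: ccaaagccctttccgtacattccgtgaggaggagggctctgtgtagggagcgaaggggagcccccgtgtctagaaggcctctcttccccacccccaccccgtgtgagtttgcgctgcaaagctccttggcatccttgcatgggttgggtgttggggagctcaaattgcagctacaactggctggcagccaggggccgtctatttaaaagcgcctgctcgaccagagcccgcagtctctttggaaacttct
Igfbp6, chr15:102143936-102144185, plus strand: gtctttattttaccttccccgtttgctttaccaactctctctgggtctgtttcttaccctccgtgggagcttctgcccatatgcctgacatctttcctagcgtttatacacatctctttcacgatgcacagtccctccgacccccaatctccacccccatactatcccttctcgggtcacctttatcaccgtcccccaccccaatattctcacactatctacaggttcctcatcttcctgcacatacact
All 9 members had a window in the table, 10 windows in all because Igfbp2 had 2. Of 32851 windows of the same length over all genes, 6.02% held CACGTG, 18.3% TTGTTT, 32.7% GGGCGG, 6.75% TGANTCA and 1.47% a CArG box, and 0.794% held both CACGTG and TTGTTT. The Igfbp2 window shown held 1 CACGTG and 3 GGGCGG, and its other window held 1 TTGTTT and 1 TGANTCA. None of the 5 motifs was found in the windows of Igfbp3, Igfbp4, Igfbp5 and Igfbp6, and no window of a member held a CArG box. A match is a description of letters and not of binding. Igfbp2 (chr1:72824503-72852474, plus strand, GENCODE M21 on GRCm38) and Igfbp5 (chr1:72857932-72874884, minus strand) are neighbours that point towards each other, with 5457 bases between their ends.

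The members differed in the gate where they were highest, and none was highest in the phagocyte gate. Igfbp7 had the most UMIs per 1000000 of the 9 members in each of the 3 gates in every library, between 1234 and 13773 CPM, and was highest in the smooth muscle gate. Igf1r, Irs2 and Igfbp2 were also highest in the smooth muscle gate, of these 3 gates, in all 4 libraries. Igf1, Igfbp4, Igfbp5 and Igfbp6 were highest in the fibroblast gate in all 4 libraries. In the phagocyte gate Igf1 stood at 72.6%, 23.8%, 71.0% and 25.3% of its fibroblast level and Igfbp4 at 22.4%, 10.3%, 29.5% and 22.1%. In the same gate Col1a1, a collagen gene of fibroblasts that no gate used, stood at 2.78%, 2.96%, 9.21% and 2.94% of its fibroblast level, Pi16 at 0.615%, 1.25%, 1.23% and 2.03% and Dpt at 0.369%, 0.710%, 1.07% and 1.19%, each below both members in every library. Igfbp3 was at most 23.0 CPM in all 3 gates.

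**Figure D1:**
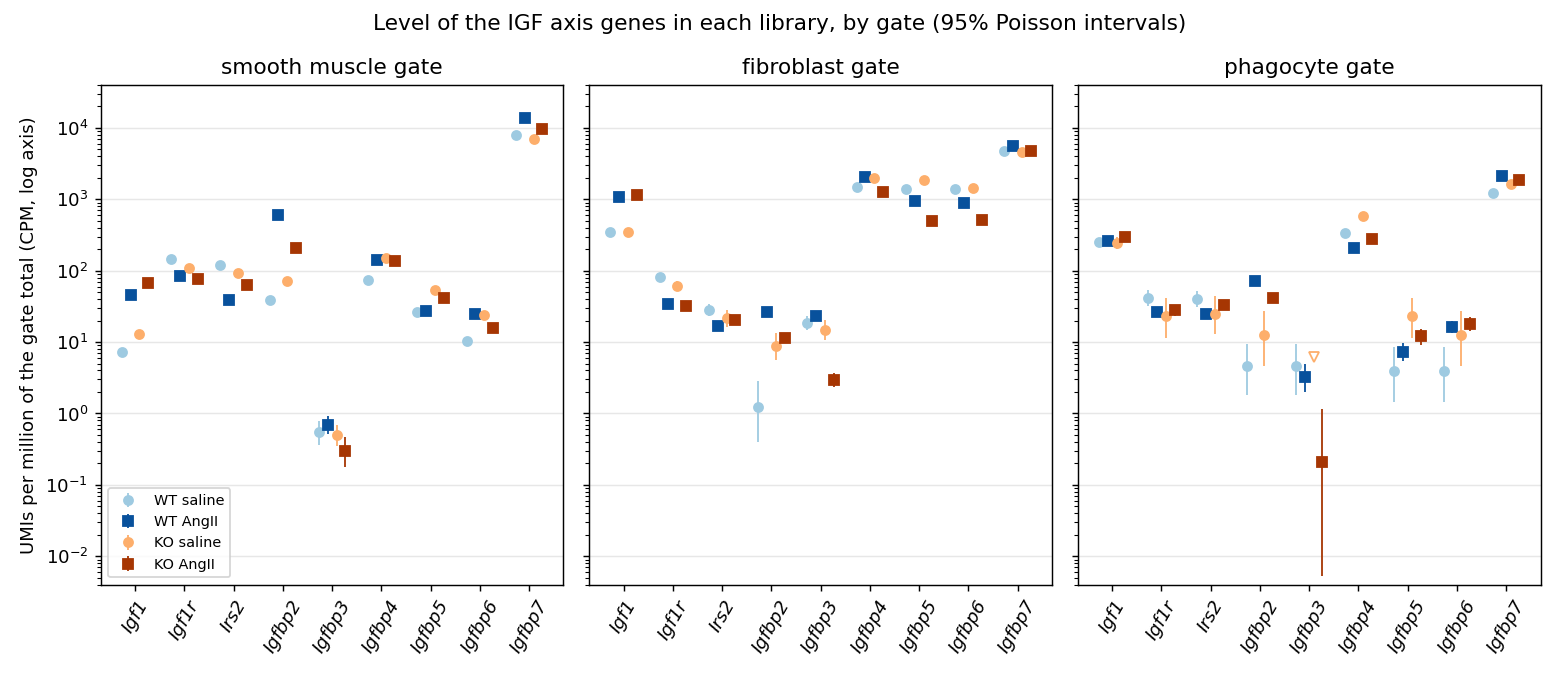
Level of each member in CPM (log axis) in the smooth muscle, fibroblast and phagocyte gates, with 1 point per library and 95% Poisson intervals. The open triangle marks a count of 0 (Igfbp3, KO saline, phagocyte gate), plotted at the level that 3 UMIs would give. Igf1 lies higher in both AngII libraries than in both saline libraries in the smooth muscle and fibroblast gates, and Igfbp2 spans 39.3 to 597 CPM in the smooth muscle gate.

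The members were chosen with earlier results of these data known. Shares of all genes beside their counts, here and below, are thus no independent yardstick. Over the 3 gates, 24 gene and gate values could be compared between WT AngII and WT saline, of which 7 were higher by 2-fold or more and 2 were lower by as much. In smooth muscle 3 of 8 members were higher (Igf1, Igfbp2, Igfbp6) and 1 lower (Irs2), where 3% of all 7334 genes compared were higher and 3% lower. In fibroblasts 2 of 9 were higher (Igf1, Igfbp2) against 5.26% of all genes, and 1 was lower (Igf1r) against 7.04%. Among phagocytes 2 of 7 were higher (Igfbp2, Igfbp6) against 4.72%, and 0 were lower against 5.13%. The median log2 ratio of the members was 0.87, 0.24 and 0.04 in the 3 gates, beside -0.12, -0.12 and -0.09 over all genes compared. Of the 7 higher values, Igfbp2 in smooth muscle and Igf1 in fibroblasts lay in the gate where the gene was highest, and the other 5 lay in gates with between 1.81% and 11.8% of the level of the highest gate.

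Between KO AngII and KO saline, 4 of 24 values were higher by 2-fold or more and 3 lower. In smooth muscle Igf1 and Igfbp2 were higher (2.68% of all genes) and 0 members lower (2.28%). In fibroblasts Igf1 was higher (5.83%) and Igfbp5 and Igfbp6 lower (11.3%). In phagocytes Igfbp2 was higher (5.61%) and Igfbp4 lower (5.6%). Median log2 ratios of the members were -0.25, -0.38 and 0.28, against -0.11, -0.16 and -0.02 over all genes. Igf1 in smooth muscle and Igfbp2 in phagocytes were there at 5.79% and 19.9% of the level of their highest gate.

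Between KO saline and WT saline, 3 of 20 values were higher and 0 lower. The 3 were Igfbp4, Igfbp5 and Igfbp6 in smooth muscle, where the background was 0.742% of all genes higher and 0.931% lower, and where they stood at 7.56%, 2.83% and 1.69% of their fibroblast levels. No member reached 2-fold in fibroblasts, where 3.08% of all genes were higher and 2.42% lower, or in phagocytes, where 2.08% were higher and 3.4% lower. Between KO AngII and WT AngII, 0 of 24 values were higher and 3 lower. These were Igfbp2 in smooth muscle (0.31% of all genes lower, 0.774% higher) and Igfbp2 and Igfbp3 in fibroblasts (2.79% lower, 1.34% higher). No member reached 2-fold in phagocytes (1.8% lower, 0.498% higher). The comparisons share libraries, so their counts are not independent.

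**Figure D2:**
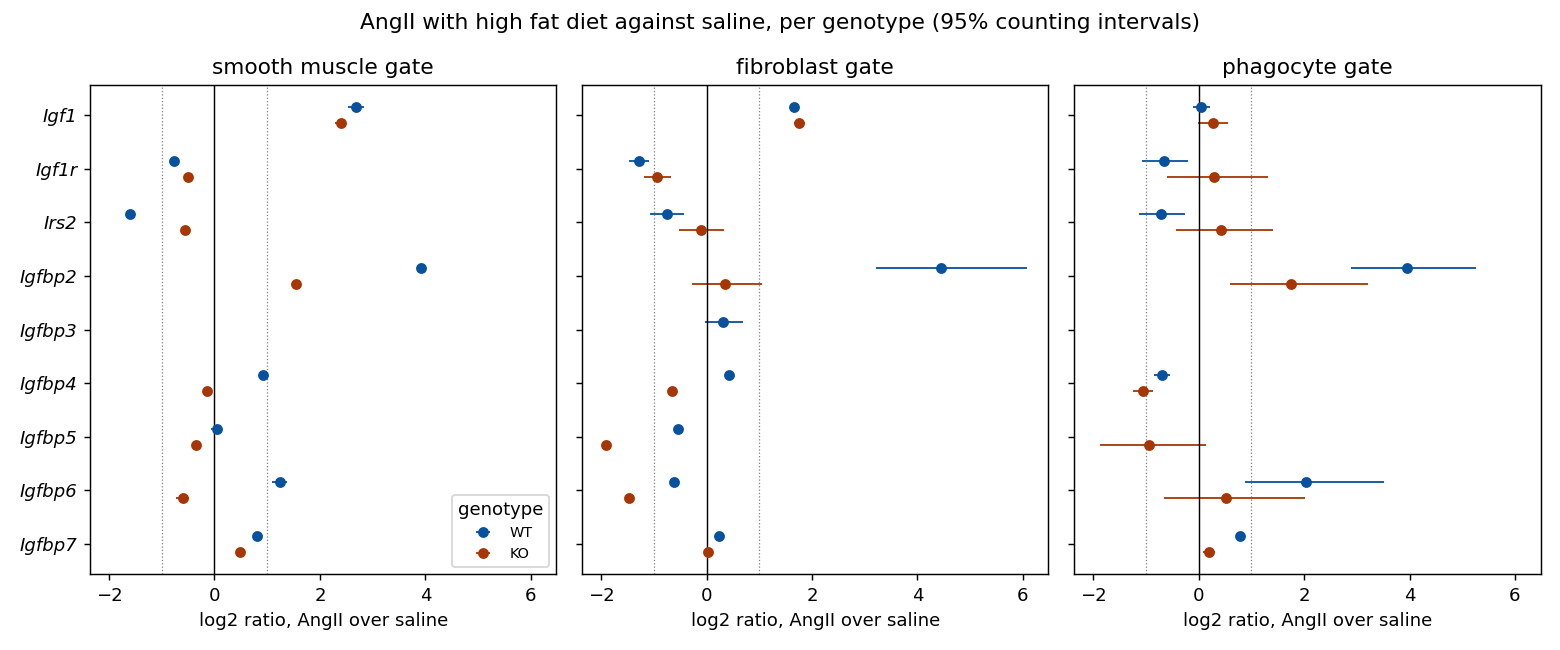
Log2 ratio of AngII over saline for each member in the libraries labelled WT (blue) and KO (brown), by gate, with 95% exact conditional intervals that cover counting error only. Dotted lines mark 2-fold, and genes below the filter on low values are left out. Igfbp2 in smooth muscle has ratios of 3.93 in WT and 1.55 in KO, whereas Igf1 in fibroblasts has 1.65 and 1.76.

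Igf1, the ligand gene, was a fibroblast and phagocyte transcript whose level was higher with AngII in fibroblasts, while in phagocytes the interval of the ratio included 0. In fibroblasts it stood at 343.6, 1082, 343.4 and 1161.6 CPM. Both saline libraries were level with each other, and both AngII libraries lay higher. The log2 ratio of AngII over saline was 1.65 in WT (95% interval 1.58 to 1.73, 3.15-fold) and 1.76 in KO (1.66 to 1.86, 3.38-fold). The difference between these ratios, KO minus WT, was 0.10 with a counting interval of -0.02 to 0.23. With every cell thinned to 3000 UMIs, the share of fibroblasts with an Igf1 UMI was 44.7%, 79.1%, 42.6% and 83.1%, among 667, 1696, 333 and 1879 cells. Before thinning it was 50.4%, 90.3%, 49.6% and 94.1%, at median depths of 3608, 9153.5, 3874.5 and 11779 UMIs. In the thinned cells of the smooth muscle gate the shares were 1.56%, 6.61%, 2.80% and 8.48%. More fibroblasts thus had Igf1 in the AngII libraries at equal depth.

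In the phagocyte gate Igf1 was at 249.6, 257, 244 and 294 CPM. The log2 ratios of 0.04 (-0.12 to 0.21) in WT and 0.27 (-0.0047 to 0.55) in KO did not exclude 0. At equal depth 54.1%, 42.0%, 43.7% and 51.0% of phagocytes had an Igf1 UMI. Within that gate the gene was uneven. In WT AngII it stood at 419.5 CPM in the 294 thinned cells with at least 3 UMIs of Lyve1, Cd163, Folr2 and Timd4 (genes of resident macrophages) and at 111 CPM in the 310 cells with 0, a log2 ratio of 1.92 (1.60 to 2.25). In KO AngII the values were 359 and 216 CPM (0.74, 0.42 to 1.06). In WT AngII the 148 cells with at least 30 UMIs of the class II genes Cd74, H2-Ab1 and H2-Aa had 90.1 CPM against 320.2 in the rest (-1.83, -2.33 to -1.36), and in KO AngII 97.7 against 346 (-1.82, -2.61 to -1.13). No such gap was seen with class II genes in the saline libraries (log2 ratios of 0.22 and 0.05, both intervals spanning 0, with 41 and 17 class II-high cells). Such marker sums cut a range of cells and are not cell types.

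The smooth muscle gate gave Igf1 at 7.16, 46.0, 12.8 and 67.3 CPM, with AngII log2 ratios of 2.68 in WT (2.53 to 2.84) and 2.39 in KO (2.29 to 2.50). These levels were 2.08%, 4.25%, 3.72% and 5.79% of those in fibroblasts. Of fibroblast genes that no gate used, Pi16 stood there at 0.838%, 2.78%, 1.29% and 3.05% of its fibroblast level and Dpt at 1.21%, 2.54%, 2.03% and 3.73%, all below the Igf1 values. Col1a1 lay above them, at 304 against 2026 CPM in WT saline and at 15.4%, 28.1% and 16.2% of its fibroblast level in WT AngII, KO saline and KO AngII. When cells with 10 or more UMIs of Dcn and Lum or of the phagocyte genes were removed from the gate, Igf1 was at 3.28, 22.5, 6.74 and 28.6 CPM. The summed level of the 8 fibroblast markers in the smooth muscle gate was 2412, 6618, 2517 and 6084 CPM and moved with Igf1. Their part in the Igf1 values of this gate was not tested.

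Igf1r, the receptor gene, was lower with AngII in the 2 gates that carried most of it. In smooth muscle it stood at 143.5, 84.7, 108.7 and 77.1 CPM, with both saline libraries above both AngII libraries. The log2 ratios of -0.76 (-0.81 to -0.71) in WT and -0.50 (-0.55 to -0.44) in KO were under 2-fold. At equal depth, 32.2%, 22.8%, 25.8% and 21.8% of smooth muscle cells had an Igf1r UMI. Fibroblasts had 82.6, 33.9, 61.0 and 31.9 CPM, with log2 ratios of -1.28 (-1.48 to -1.09) in WT and -0.93 (-1.19 to -0.67) in KO. The libraries labelled KO and WT lay close to each other under AngII (log2 ratio -0.14 in smooth muscle and -0.09 in fibroblasts, the latter with an interval of -0.24 to 0.07). Phagocytes had 41.3, 26.3, 22.9 and 27.9 CPM, and the KO saline value rests on 11 UMIs. With phagocytes limited to at most 1 Myh11 UMI, Igf1r there was 25.9, 14.9, 19.2 and 16.8 CPM, the KO saline value from 7 UMIs.

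Irs2, which encodes an adaptor between the insulin and IGF-1 receptors and PI3 kinase, was mainly a smooth muscle transcript and was lowest in WT AngII. Its smooth muscle level was 119.8, 39.3, 93.6 and 63.4 CPM. The AngII log2 ratio was -1.61 in WT (-1.68 to -1.54) and -0.56 in KO (-0.62 to -0.50), and the KO ratio exceeded the WT ratio by 1.05 (0.96 to 1.14, counting error only). KO AngII was above WT AngII by 0.69 (0.62 to 0.76), a difference under 2-fold. At equal depth 23.1%, 9.22%, 18.7% and 18.4% of smooth muscle cells had an Irs2 UMI, so the share in KO AngII was that of KO saline. When every cell was given equal weight, KO AngII exceeded WT AngII by 1.06, and when cells were thinned to 3000 UMIs before gating, by 1.27. The AngII ratio in KO was then -0.09 and 0.08, respectively. The size of the AngII difference in KO thus depended on these settings, and its sign changed only with thinning. Thinning before gating also changed which cells were in the gate, leaving 8170 cells of KO saline and 3669 of KO AngII. In WT the ratio was -1.49 and -1.48 under the same settings.

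Within the smooth muscle gate of KO AngII, Irs2 was 36.6 CPM in the 574 thinned cells with at least 3 UMIs of Spp1, Tnfrsf11b and Vcam1 (genes of activated smooth muscle) and 93.3 CPM in the 3831 cells with 0 (log2 ratio -1.35, -1.74 to -0.98). In WT AngII both kinds of cell were low, at 29.1 and 38.4 CPM. In fibroblasts Irs2 stood at 28.2, 16.7, 21.8 and 20.2 CPM and in phagocytes at 40.6, 24.9, 25.0 and 33.5. With phagocytes limited to at most 1 Myh11 UMI, Irs2 there was 22.4, 19.8, 21.9 and 26.5 CPM, the KO saline value from 8 UMIs. Thinned fibroblasts with at least 3 UMIs of the inflammatory genes Saa3, Mmp3, Cxcl1 and Ccl7 had more Irs2 than those with 0 in all 4 libraries (49.4 against 23.2, 26.7 against 12.8, 45.8 against 15.7 and 26.0 against 12.01 CPM), although the KO saline pair rests on 7 and 10 UMIs and its interval spans 0.

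Igfbp2, whose protein binds IGFs and also integrins, had the widest range of the members in smooth muscle. Its level there was 39.3, 597, 71.8 and 210.7 CPM. WT AngII stood above all other libraries, and both AngII libraries stood above both saline libraries. The AngII log2 ratio was 3.93 in WT (3.86 to 3.99, 15.2-fold) and 1.55 in KO (1.50 to 1.60, 2.93-fold), and the KO ratio was smaller by 2.37 (counting interval of the difference, KO minus WT, -2.45 to -2.29). KO AngII was below WT AngII by a log2 ratio of -1.50 (-1.53 to -1.47), whereas KO saline was above WT saline by 0.87 (0.80 to 0.94). Among the 7334 genes compared in WT smooth muscle, the Igfbp2 ratio was at percentile 99.9.

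Igfbp2 was found in more smooth muscle cells in both AngII libraries. At equal depth 4.55%, 39.1%, 9.13% and 19.6% of smooth muscle cells had an Igfbp2 UMI, against 0.300%, 5.54%, 2.40% and 2.39% of fibroblasts and 1.56%, 8.79%, 2.82% and 3.76% of phagocytes. The 90th percentile of thinned smooth muscle cells was 0, 5, 0 and 1 Igfbp2 UMIs. The cell with the most had 25, 77, 39 and 27 UMIs, among 7323, 5889, 9169 and 5660 thinned cells. Each maximum is 1 cell, and maxima from unequal numbers of cells do not compare the libraries. Even in WT AngII the 10% of smooth muscle cells with the most Igfbp2 held 65.3% of its UMIs. Cells with at least 3 UMIs of Spp1, Tnfrsf11b and Vcam1 differed little from cells with 0 in the AngII libraries, with 578 against 509 CPM in WT (log2 ratio 0.18, 0.08 to 0.29) and 183 against 172 CPM in KO (0.09, -0.09 to 0.26).

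The Igfbp2 levels in the other 2 gates were low. In fibroblasts they were 1.22, 26.6, 8.89 and 11.3 CPM, which is 3.09%, 4.46%, 12.4% and 5.36% of the smooth muscle level, beside 4.13%, 3.49%, 12.02% and 5.99% for Acta2. In phagocytes they were 4.59, 70.7, 12.5 and 41.9 CPM, or 11.7% to 19.9% of the smooth muscle level, beside 15.6% to 17.4% for Acta2. With phagocytes limited to at most 1 Myh11 UMI, Igfbp2 there was 2.59, 15.5, 5.49 and 5.96 CPM. The 2-fold differences of Igfbp2 in these gates thus lay near the level at which Acta2 appeared in them.

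**Figure D3:**
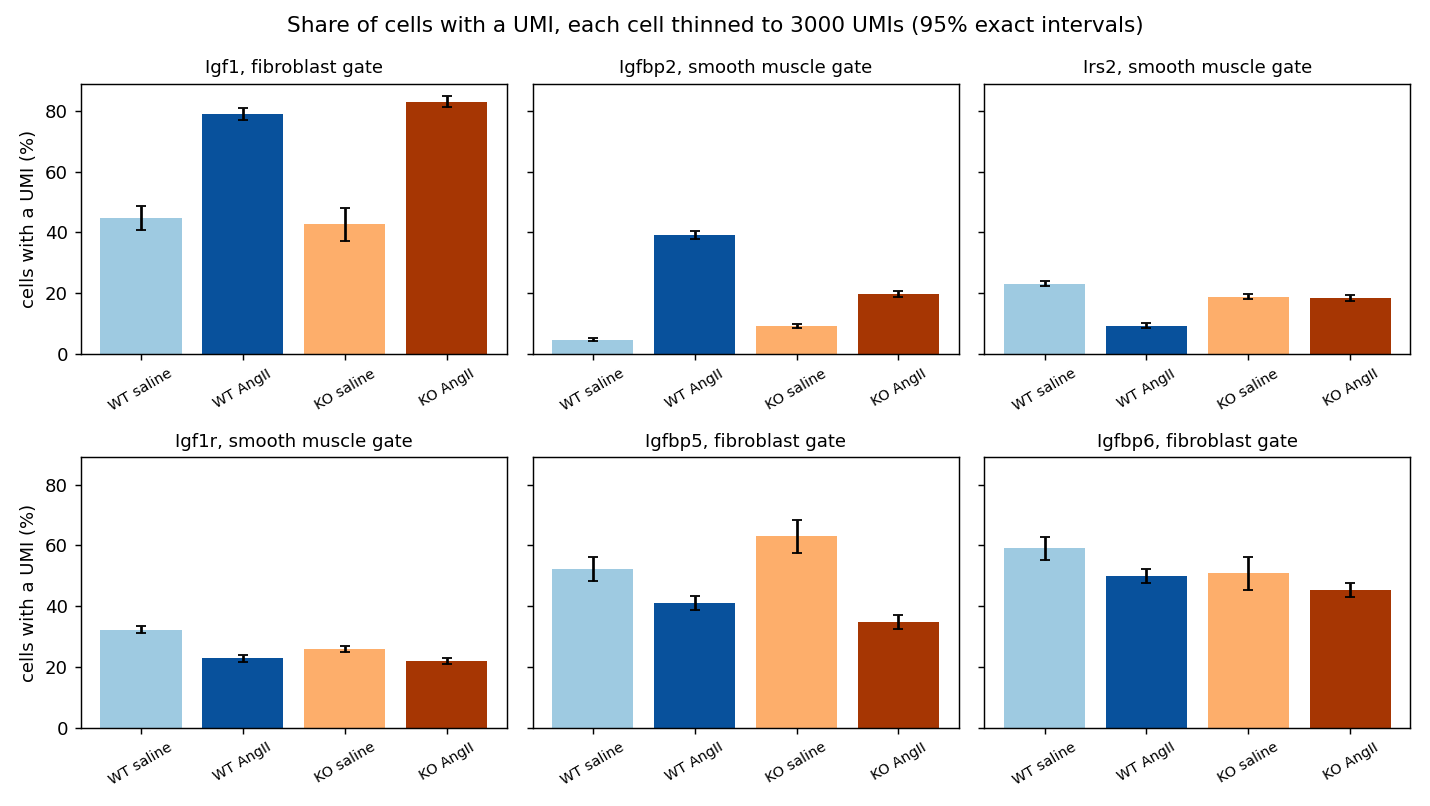
Share of cells with at least 1 UMI of 6 member and gate pairs after each cell was thinned to 3000 UMIs, by library, with 95% exact binomial intervals. Igfbp2 is in 4.55% of smooth muscle cells of WT saline and 39.1% of WT AngII, and Irs2 is in 23.1% and 9.22% of the same pair but is in 18.7% and 18.4% in the KO libraries.

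Igfbp3, the main carrier of IGF-1 in blood plasma, was rare in these aortic cells and was spread over few of them. In fibroblasts it stood at 18.5, 23.0, 14.9 and 3.0 CPM, from 76, 412, 37 and 73 UMIs. KO AngII was lowest. The log2 ratio of KO AngII over WT AngII was -2.96 (-3.34 to -2.60), and that of KO AngII over KO saline was -2.34 (-2.92 to -1.72), although this last pair missed the filter with a mean under 10 CPM. At full depth 2.35%, 6.37%, 2.96% and 1.86% of fibroblasts had an Igfbp3 UMI, against 0.239%, 0.425%, 0.251% and 0.265% of smooth muscle cells, and at equal depth 2.55%, 3.60%, 3.90% and 0.692% of fibroblasts did. A single fibroblast held 23.7%, 9.47%, 27.0% and 23.3% of the UMIs. In WT AngII 116 of the thinned UMIs lay in the 1055 fibroblasts with at least 3 UMIs of Cthrc1 and Postn (genes of activated fibroblasts) and 1 in the 295 cells with 0 (36.7 against 1.13 CPM, log2 ratio 5.02, 2.51 to 10.3). In KO AngII, with 1069 and 341 such cells, the levels were 3.12 and 1.96 CPM. In WT saline the order was the other way, with 0 UMIs in the 18 marker-high cells and 35 in the 538 marker-free cells.

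Igfbp4, a binding protein that in most settings restrains IGF-1 until a protease cuts it, was spread over more fibroblasts than Igfbp5 and Igfbp6. Its fibroblast level was 1503, 2021, 1978 and 1259.6 CPM. WT AngII and KO saline were nearly level and above the other 2 libraries. KO AngII was lowest on all UMIs, but with cells thinned to 3000 UMIs the levels were 1538, 2154, 2105 and 1597 CPM, with WT saline lowest. The AngII log2 ratio was 0.43 (0.39 to 0.47) in WT and -0.65 (-0.69 to -0.61) in KO, so the direction differed between the libraries labelled WT and KO, both under 2-fold. At equal depth 86.7%, 92.0%, 94.3% and 86.1% of fibroblasts had a UMI. In smooth muscle the level was 74.4, 141.7, 149.6 and 134.8 CPM, with WT saline below the other 3 libraries. The log2 ratios were 0.93 (0.88 to 0.98) for WT AngII over WT saline and 1.01 (0.95 to 1.06) for KO saline over WT saline. With TMM scaling the first of these was 1.04, and without cells rich in fibroblast or phagocyte genes the levels were 62.3, 101.6, 119.7 and 100.4 CPM, which put KO saline above WT saline by 0.94.

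In phagocytes Igfbp4 stood at 336, 208, 584 and 279 CPM, lower with AngII in both genotypes (log2 ratio -0.69, -0.84 to -0.54, in WT and -1.07, -1.25 to -0.87, in KO). With TMM scaling the KO ratio was -0.91, under 2-fold. It was higher in the cells with at least 3 UMIs of Lyve1, Cd163, Folr2 and Timd4 in all 4 libraries. The thinned levels with and without these UMIs were 393.4 and 51.3 CPM in WT saline, 393.4 and 101.1 in WT AngII, 780.1 and 231 in KO saline, and 403 and 114 in KO AngII, and none of the 4 intervals of the log2 ratio included 0. The saline levels without marker UMIs come from 13 cells in each library. Marker-high phagocytes were 233 of 257 thinned cells in WT saline and 294 of 705 in WT AngII. Within the marker-high cells Igfbp4 was at 393.4 CPM in both after thinning, and at 353.5 and 322.1 CPM before it. The part of these cell shares in the lower level of the whole gate was not tested. In the libraries labelled KO the thinned marker-high cells stood at 780.1 and 403 CPM.

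Igfbp5 and Igfbp6 were fibroblast transcripts that were lower with AngII, more so in the libraries labelled KO. Igfbp5, which binds matrix as well as ligand, stood at 1401, 960.2, 1876 and 499 CPM in fibroblasts. Igfbp6, which prefers IGF-2, stood at 1372, 895, 1417 and 511 CPM. For both genes KO AngII was lowest and both saline libraries were highest. The AngII log2 ratios of Igfbp5 were -0.54 (-0.59 to -0.50) in WT and -1.91 (-1.96 to -1.86) in KO, and those of Igfbp6 -0.62 (-0.66 to -0.57) and -1.47 (-1.53 to -1.42). KO AngII lay below WT AngII by a log2 ratio of -0.94 for Igfbp5 and -0.81 for Igfbp6, both under 2-fold. The share of fibroblasts with a UMI at equal depth differed less than the level: 52.2%, 41.0%, 63.1% and 34.7% for Igfbp5 and 59.1%, 49.9%, 50.8% and 45.4% for Igfbp6, against 3.95%, 2.67%, 9.54% and 7.86% and 1.76%, 2.90%, 4.20% and 2.35% of smooth muscle cells.

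The UMIs of both genes were concentrated in part of the fibroblasts. The 10% of fibroblasts with the most Igfbp5 held between 58.5% and 72.4% of its UMIs. Thinned fibroblasts with at least 3 UMIs of Pi16 and Dpp4, genes of adventitial progenitor-like fibroblasts, had more Igfbp5 than those with 0 in all 4 libraries: 2058 against 561 CPM in WT saline, 1445 against 449.5 in WT AngII, 2538 against 920.4 in KO saline and 1067 against 219 in KO AngII. The log2 ratios were 1.87, 1.68, 1.46 and 2.29, and the lowest of their interval ends was 1.24. Igfbp6 differed more between these cells in the saline libraries (1.28 and 2.31) than in the AngII libraries (0.22 and 0.57). Within the cells rich in Pi16 and Dpp4, Igfbp5 was still lower with AngII, at 1445 against 2058 CPM in WT and 1067 against 2538 in KO, and Igfbp6 was at 865 against 1937 and 639 against 1919. The lower levels of both genes with AngII were thus also present within this range of cells.

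In smooth muscle Igfbp5 and Igfbp6 were low, at 26.1, 26.8, 53.0 and 41.3 CPM and at 10.4, 24.6, 23.9 and 15.7 CPM. KO saline was above WT saline for both (log2 ratio 1.02, 0.93 to 1.11, and 1.20, 1.06 to 1.34). Without cells rich in fibroblast or phagocyte genes the Igfbp5 levels were 11.96, 6.78, 33.8 and 21.2 CPM and the Igfbp6 levels 5.53, 6.62, 13.3 and 5.15. KO saline was still above WT saline in that setting (1.50 for Igfbp5, and 1.26 for Igfbp6 at a mean under 10 CPM), whereas the AngII ratio of Igfbp6 in WT was 0.26 in place of 1.24. Doubling the gate minimums left KO saline above WT saline by 0.78 for Igfbp5 and 0.66 for Igfbp6, under 2-fold. The summed level of 4 pericyte markers in the smooth muscle gate was 356, 413, 570 and 1073 CPM, and its part in these values was not tested. Under AngII, the library labelled KO was above WT for Igfbp5 by 0.62, and by 1.64 without those cells. In phagocytes Igfbp5 and Igfbp6 were at 3.93 to 22.9 CPM, at most 3.52% of the fibroblast level.

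**Figure D4:**
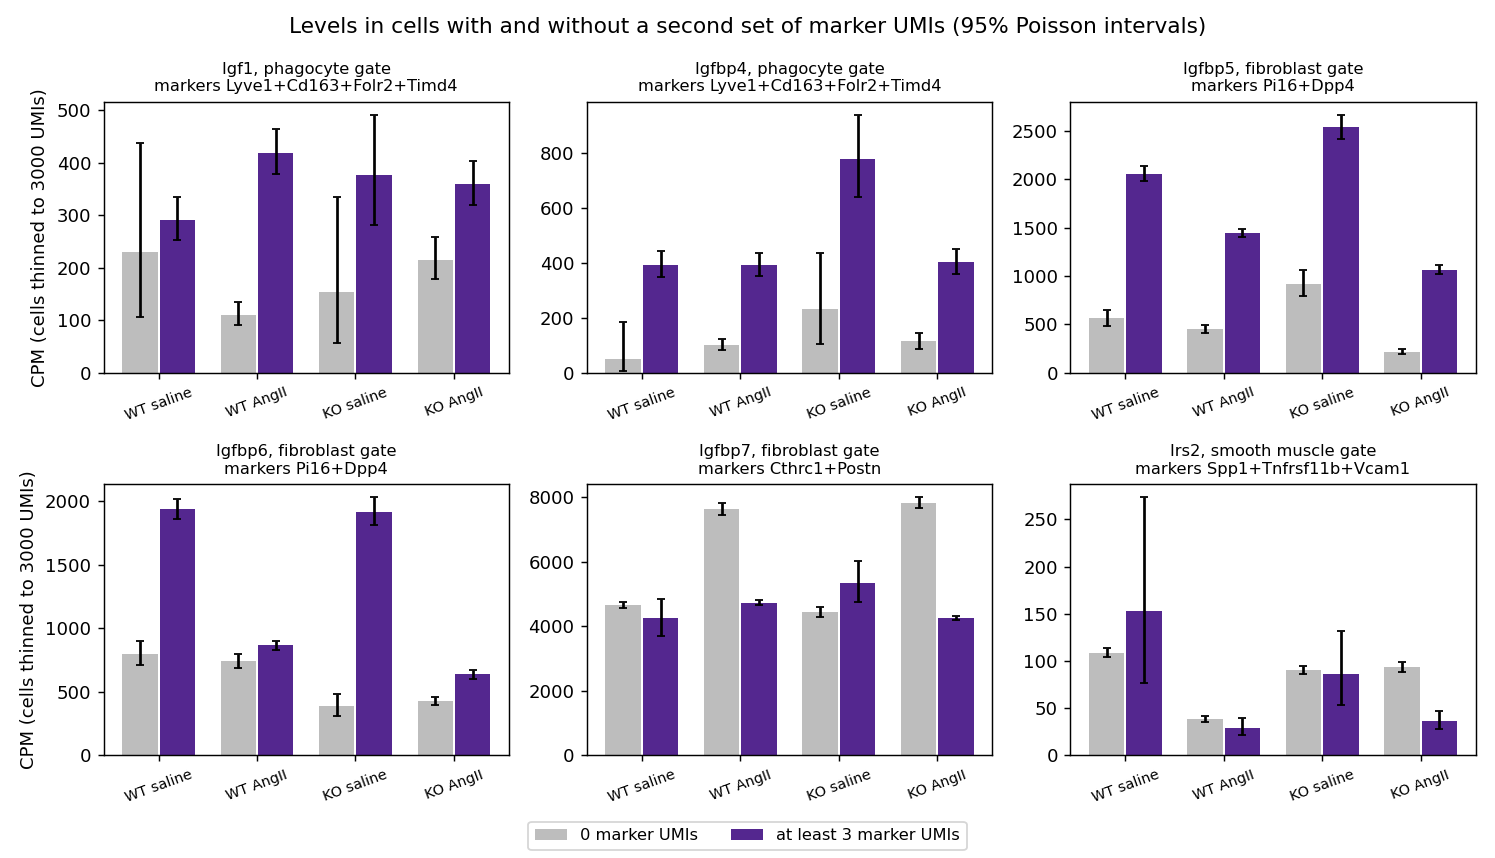
CPM of 6 member and gate pairs in cells thinned to 3000 UMIs, split by a second set of marker genes into cells with 0 (grey) and with at least 3 (purple) marker UMIs, by library, with 95% Poisson intervals. Igfbp5 is higher in fibroblasts with Pi16 and Dpp4 UMIs in all 4 libraries, and Irs2 in smooth muscle is 36.6 against 93.3 CPM in KO AngII.

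Igfbp7, a secreted protein of the vessel wall that binds IGF-1 weakly, was present in nearly every smooth muscle cell. At equal depth at least 99.9% of smooth muscle cells and at least 98.8% of fibroblasts had a UMI in every library, against 55.3%, 68.7%, 70.4% and 65.3% of phagocytes. Its smooth muscle level was 7884, 13773, 7024 and 9787 CPM, with both AngII libraries above both saline libraries and WT AngII highest. The AngII log2 ratio was 0.80 (0.80 to 0.81) in WT and 0.48 (0.47 to 0.48) in KO, and KO AngII lay below WT AngII by -0.49 (-0.50 to -0.49). All of these are under 2-fold. In fibroblasts the level was nearly flat at 4681, 5514, 4655 and 4734 CPM. Within the AngII libraries it was lower in fibroblasts with at least 3 UMIs of Cthrc1 and Postn than in those with 0 (4730 against 7637 CPM in WT and 4247 against 7818 in KO), beside 4241 against 4656 CPM in WT saline (log2 ratio -0.13, -0.33 to 0.06) and 5353 against 4446 in KO saline (0.27, 0.08 to 0.45), from 18 and 17 marker-high cells. In phagocytes Igfbp7 was at 1234, 2116, 1620 and 1851 CPM, or 15.6%, 15.4%, 23.1% and 18.9% of its smooth muscle level beside 15.8%, 15.6%, 17.4% and 16.7% for Acta2. With phagocytes limited to at most 1 Myh11 UMI it was 226, 354, 603.5 and 362 CPM.

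A small endothelial gate (at least 3 UMIs of Pecam1 and Cdh5 and few of the other gates' genes) held 103, 19, 48 and 38 cells and was used for levels only. Igfbp7 there was at 1739, 5686, 1113 and 5245 CPM, higher in both AngII libraries. Igfbp4 was at 268, 362, 349 and 301 CPM. Igfbp3 had 7, 0, 4 and 71 UMIs, but the 71 UMIs of KO AngII came from 6 of 38 cells and 1 cell held 50.7% of them. With this few cells the levels describe these cells and no more.

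The list of other IGF pathway genes held 61 names, of which 60 were in the tables. In WT AngII against WT saline, 3 of 43 compared genes were higher by that margin and 4 lower in smooth muscle, 2 of 45 higher and 11 lower in fibroblasts (7.04% of all genes lower), and 4 of 35 higher and 2 lower in phagocytes. In KO AngII against KO saline the counts were 1 of 42 higher and 4 lower, 1 of 43 higher and 6 lower (11.3% of all genes lower), and 5 of 36 higher and 2 lower. In KO saline against WT saline, 0 of 44 were higher or lower in smooth muscle. Of 46 in fibroblasts 1 was higher and 3 lower, and of 21 in phagocytes 0 were higher and 1 lower. In KO AngII against WT AngII, 0 of 39 in smooth muscle and 0 of 38 in phagocytes were higher or lower. Of 39 in fibroblasts 1 was higher and 2 lower. The background shares are those given above for the same comparisons. This list too was made with earlier results of these data known.

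Of 14 listed FOXO factors and targets, WT AngII against WT saline gave 4 of 13 compared genes lower in smooth muscle, 7 of 12 in fibroblasts and 1 of 9 in phagocytes, and 0 higher in each gate. In KO AngII against KO saline 4 of 12, 5 of 12 and 2 of 10 were lower, and 1 was higher, in phagocytes. The shares of all genes lower in these gates were 3%, 7.04% and 5.13% in WT and 2.28%, 11.3% and 5.6% in KO. Because the list was made with earlier results of these data known, its counts against these shares describe the listed genes only. The higher gene was Ccng2, an unusual cyclin, at 25.6 against 8.34 CPM in KO phagocytes (log2 ratio 1.62, 0.23 to 3.52). Among the lower genes, Pik3ip1 (an inhibitor of PI3 kinase) was lower with AngII in smooth muscle, at 55.1, 13.1, 27.7 and 6.68 CPM, with log2 ratios of -2.07 in WT and -2.05 in KO. Klf15, a metabolic transcription factor, stood at 50.8, 16.3, 36.4 and 14.8 CPM in smooth muscle and at 39.6, 4.53, 19.4 and 1.50 CPM in fibroblasts. Txnip, an inhibitor of thioredoxin and glucose uptake, stood at 569, 62.2, 223 and 34.7 CPM in fibroblasts, with log2 ratios of -3.19 and -2.68. In the gates named, all 3 were lower in both AngII libraries than in both saline libraries, and in fibroblasts they were also lower in KO saline than in WT saline by at least 2-fold (-1.10 for Pik3ip1, -1.03 for Klf15 and -1.35 for Txnip). Fbxo32, a ubiquitin ligase of muscle wasting, was lower in KO AngII than in KO saline smooth muscle (47.9 against 107 CPM, -1.17).

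The proteases that free IGF-1 from its carriers, and an inhibitor of them, differed in both directions. Pappa, the protease that cuts IGFBP-4, stood at 6.80, 17.2, 14.1 and 38.2 CPM in fibroblasts. Its AngII log2 ratios were 1.34 (0.78 to 1.95) in WT and 1.43 (0.95 to 1.96) in KO. Its log2 ratios of KO over WT were 1.06 (0.30 to 1.83) in saline and 1.15 (0.96 to 1.34) under AngII. Stc2, an inhibitor of that protease, stood at 40.8, 5.09, 23.0 and 3.25 CPM, with log2 ratios of -3.00 (-3.39 to -2.63) and -2.83 (-3.33 to -2.31). Of the 4 libraries, KO AngII had the highest Pappa and the lowest Stc2 level in fibroblasts. In smooth muscle Htra1, a secreted protease that cleaves binding proteins, was at 378, 1086, 501 and 818 CPM (log2 ratio 1.52 in WT, 0.71 in KO), and Plat, tissue plasminogen activator, was at 24.7, 117, 46.6 and 108 CPM (2.25 and 1.21). Mmp2, a gelatinase, was 276 CPM in KO AngII fibroblasts and 650.5 in WT AngII (-1.24, -1.28 to -1.19). Ctsd, a lysosomal protease, was higher with AngII in phagocytes (532, 1772, 548 and 1928 CPM).

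Of the receptors, Igf2r, which clears IGF-2, was higher in WT AngII fibroblasts (74.6 against 31.1 CPM, log2 ratio 1.26) and reached 58.1 against 34.3 CPM in KO, under 2-fold. Insr, the insulin receptor gene, was at 28.8 and 11.97 CPM in phagocytes of WT saline and WT AngII (-1.27, -1.82 to -0.70). Inpp5d, a lipid phosphatase of blood cells that opposes PI3 kinase, was lower in KO saline than in WT saline phagocytes (43.8 against 119.9 CPM, from 21 and 183 UMIs, -1.45). Igf2, named here after its values were seen because it is the other ligand, had only 33, 14, 39 and 41 UMIs in fibroblasts, or 8.02, 0.783, 15.8 and 1.66 CPM.

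Over the 12 values of 3 gates by 4 libraries, the members' profiles were compared as log2(CPM + 1). These points share libraries and are dominated by differences between gates, so the correlations are descriptions. Igfbp5 and Igfbp6 had the highest Pearson r of any 2 members (0.97), and Irs2 and Igf1 the lowest (-0.94). Among 9951 genes, the 3 most like Igfbp5 were Bicc1, Entpd2 and Cygb (r 0.99 each) and those most like Igfbp6 were Tmem100, Meox1 and Foxd1 (0.99, 0.99 and 0.98). Igfbp7 was most like Hspg2, Dkk3 and Dag1 (0.99, 0.98 and 0.98), and Igfbp4 most like Tfpi, Tmem158 and Txndc12 (0.97, 0.97 and 0.96). Igfbp2 had weaker partners, Klhl30, Ero1l and Sbspon (0.93, 0.92 and 0.91), as had Irs2 with Fryl, Sypl and Tob2 (0.95, 0.95 and 0.94) and Igfbp3 with Rnf145, Lrrk1 and Pnp2 (0.95, 0.94 and 0.93). Igf1 was most like Pigt, Arf5 and Mospd3 (0.98, 0.98 and 0.97) and Igf1r most like Epn2, Morf4l1 and Taok1 (0.98 each for the first 2 and 0.97 for the last).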

How the data were processed

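The 4 libraries are 10x Genomics 3′ single-cell RNA, and the authors deposited 1 matrix of UMI counts per library, made with Cell Ranger against mm10 per the submitters' processing notes. Version, annotation and filters were not given in the sources used here. Cells under 500 detected genes or over 20% mitochondrial UMIs were dropped, and counts of the rest were gated and summed. Doublets were not removed here. CPM are UMIs per 1000000 of the gate, with exact Poisson intervals. Shares of cells carry exact Clopper-Pearson intervals, also after thinning each cell to 3000 UMIs (seed 1); shallower cells were left out. A count of 0 was set to the floor of 3 UMIs per library, so that its ratio is a bound, and no ratio was given where the other count was at or under that floor. The ratio and its interval were run on simulated counts with counting error only, which says nothing of variation between cells or mice. Python 3.11.15, numpy 2.4.6, scipy 1.17.1, pandas 2.3.3 and matplotlib 3.10.9 were used, and R 4.3.3 with edgeR 4.0.16 and DESeq2 1.42.0 gave scaling factors only. Samples were grouped by genotype and treatment labels. Alternatives were 2 other scalings, exclusive gates, doubled gate minimums, thinned cells, equal weight per cell and no filters. Text names all 9 members, at most 3 other pathway genes per gate, comparison and direction, and the 3 genes most like each member. The members and lists were chosen with earlier results of these data known.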

Additional observations from a re-analysis of the deposited data

Results flagged for a closer look

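For 3 gene and gate pairs the AngII ratio had opposite signs in the libraries labelled WT and KO, with both counting intervals off 0. The difference of the log2 ratios, KO minus WT, was -1.08 for Igfbp4 in fibroblasts (-1.14 to -1.02), where WT was higher with AngII (0.43) and KO lower (-0.65). It was also -1.08 for Igfbp4 in smooth muscle (-1.15 to -1.01), from 0.93 in WT and -0.15 in KO, although the KO ratio was 0.00 with TMM scaling. For Igfbp6 in smooth muscle it was -1.84 (-2.02 to -1.66), from 1.24 and -0.61, at levels of 10.4 to 24.6 CPM, and without cells rich in fibroblast or phagocyte genes the ratios were 0.26 and -1.37. With 1 library per group these differences were not tested.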

How the results depend on the processing

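The 2-fold counts over members and gates moved by more than 1.5 times as follows. With every cell weighted equally, 5 values in place of 3 were lower with AngII in KO. The 3 values higher in KO saline than in WT saline became 0 with doubled gate minimums, 5 with cells thinned to 3000 UMIs and 7 with no filter on low values. The 0 values higher in KO AngII than in WT AngII became 1 with exclusive gates, 2 with thinned cells and 2 with cells weighted equally, and the 3 lower values became 5 with no filter on low values. Scaling by TMM or median-of-ratios factors raised the median ratio between AngII and saline libraries by up to 0.31 on the log2 scale, in KO fibroblasts with TMM. Of 92 member ratios, 36 moved beyond their counting interval with TMM, 57 with thinned cells and 24 with exclusive gates. No ratio counted as at least 2-fold changed sign under these alternatives. Among ratios under 2-fold, 13 changed sign with thinned cells and 8 with cells weighted equally. Doubled gate minimums changed the sign of 6, exclusive gates of 5 and each of the 2 scalings of 3. Leaving out a replicate was not possible with 1 library per group. No paired analysis was possible because each group has 1 library and no comparison has a test. The phagocyte gate of KO saline is limited by its number of cells, with 83 cells, 11 UMIs of Igf1r and 12 of Irs2.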
